A study of Rattus norvegicus with 50 samples.

Results

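Galactosamine is a sugar amine that hepatocytes take into the galactose pathway, where it ties up their uridine nucleotides and halts RNA and glycoprotein synthesis. Hepatocytes die over the following day, and the surviving cells then rebuild the liver, a course in which stress genes are induced first and the metabolic genes of the mature hepatocyte come back later. The comparison described here is between 24 h and 48 h after a single intraperitoneal dose of galactosamine, with each time taken relative to its own vehicle rats. It used 11 of the 50 arrays of the series, chosen by their labels: 3 galactosamine rats and 3 vehicle rats at 24 h, and 2 galactosamine rats and 3 vehicle rats at 48 h.

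All rats were female Brown Norway rats of the Bn/Crl strain (MHC haplotype RT1n), aged 9 to 11 weeks, and RNA came from whole snap frozen liver with 1 array per rat. Galactosamine rats had received 750 mg/kg once by the intraperitoneal route, and vehicle rats a sham dose by that route. Both also had a sham oral dose 2 h before the liver was taken, because other groups of the study were given nevirapine by mouth, a drug against HIV with known liver toxicity. The purpose stated for the series was to follow the days in which fibrosis arose when both agents were given, which neither agent produced alone. The design text and the protocol do not name the groups uniformly, so groups were taken from the sample titles.

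Every probe set with 1 gene symbol was considered, and 20826 probe sets gave 14217 genes. For each gene the change is the log2 signal of galactosamine at 48 h minus vehicle at 48 h, minus the same difference at 24 h. A positive change therefore means that a gene was higher at 48 h than at 24 h relative to vehicle. Rose and fell are used of changes with an adjusted p under 0.05 (limma, Benjamini-Hochberg over all 14217 genes). The p-values set a change against the spread between rats within groups, estimated for each gene from all 17 groups and 50 arrays. A group that varies more than the others has no estimate of its own. The number of arrays, above all the 2 rats at 48 h, limits the precision of the p-values. Signals at or under 4.37, the brightest average among 27 probe sets for Bacillus transcripts that serve as controls, are called background, and a gene at background in 1 group is given with a lower limit for its fold.

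Array medians of the 11 arrays lay between 4.98 and 5.07. The 3 galactosamine arrays at 24 h correlated with their own group at 0.986 to 0.99, below the 0.993 to 0.996 of the other 3 groups. The GAPDH 3′ minus 5′ difference, which grows as RNA degrades, was 0.13 and 0.145 in the galactosamine rats at 48 h, lower than in every other rat of the comparison (0.209 to 0.744). Its part in the results was not tested beyond a fit with this difference as a covariate, in which 4589 genes had a changed signal against 5179 without it. Liver markers were high on all 11 arrays: Alb (albumin) lay at 14.13 to 14.19, Ttr (transthyretin) at 13.53 to 13.75 and Apoa1 at 12.54 to 13.15. The highest value in the table is 14.22, so changes in genes as bright as Alb can hardly be seen. In whole liver, fewer cells of a type and less RNA per cell cannot be told apart.

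Between 24 h and 48 h, 5179 of 14217 genes changed, 36.4% of those tested. Of these, 2740 rose (19.3% of all genes) and 2439 fell (17.2%), and the median change over all genes was 0.03. Counts within the gene lists below are to be read beside these shares. Changes of more than 2-fold were seen in 1279 genes that rose and 1089 that fell, and changes of more than 4-fold in 270 and 133. The vehicle groups of the same 2 times differed in 458 genes, of which 354 were lower at 48 h. Each time's own effect of galactosamine is given beside the change below. It shares its arrays with the change, so the 2 are not independent.

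Relative to vehicle, 4299 genes (30.2%) were higher and 4058 (28.5%) lower at 24 h, against 3534 (24.9%) higher and 2066 (14.5%) lower at 48 h. The median size of the effect was 0.40 at 24 h and 0.30 at 48 h on the log2 scale. The 2 times share no array. Genes higher at both numbered 2163, which is 50.3% of the list at 24 h and 61.2% of the list at 48 h. Genes lower at both numbered 1202, or 29.6% and 58.2% of the lists. Genes that were lower at 24 h and higher at 48 h were fewer, at 411 (10.1% and 11.6%), and 170 (3.95% and 8.23%) went the other way. Across genes, which are not independent replicates, the 2 effects correlated at 0.52.

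**Figure D1:**
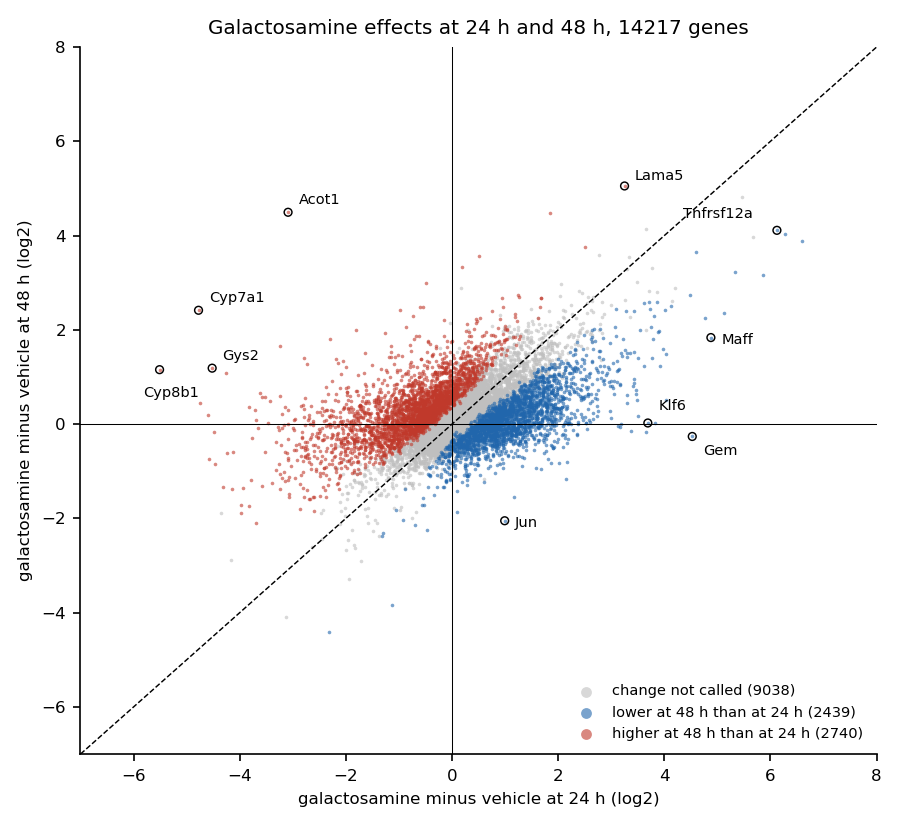
Effect of galactosamine at 24 h (x axis) and at 48 h (y axis), each as log2 signal minus vehicle, with 1 point per gene for 14217 genes. Red points rose from 24 h to 48 h (2740), blue points fell (2439), grey points did not pass the test, and the dashed line marks equal effects. Cyp7a1, Cyp8b1 and Gys2 lie at the far left, below vehicle at 24 h and above it at 48 h, while Gem, Klf6 and Maff lie at the right, and Lama5 and Tnfrsf12a were high at both times.

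Bile acid synthesis held 2 of the 3 largest rises. Cyp7a1, the rate-limiting enzyme of bile acid synthesis, lay at 5.88, 6.54 and 3.59 in the galactosamine rats at 24 h against 10.06, 10.79 and 9.50 in their vehicle rats. At 48 h it lay at 12.13 and 12.06 against 9.53, 9.70 and 9.81. All 3 rats at 24 h were below every vehicle rat and both rats at 48 h were above every vehicle rat, a change of 7.19 ± 1.04 (SE; adjusted p = 6.16e-07). Cyp8b1, the sterol 12-alpha-hydroxylase that sets the make-up of the bile acid pool, lay at 6.36, 8.26 and 6.63 against 12.58, 12.75 and 12.46 at 24 h. It lay at 12.26 and 12.17 against 11.46, 11.23 and 10.50 at 48 h, so the groups did not overlap at either time. Its change was 6.66 ± 0.83 (adjusted p = 3.78e-08), although its effect at 48 h alone, 1.15 ± 0.62, did not pass (adjusted p = 0.137).

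Of the 19 measured genes of bile acid synthesis and transport, 12 rose, 2 fell and 5 did not pass, with a median change of 1.44. The basolateral uptake transporter Slco1b2 rose by 3.46 ± 0.41, from 3.76 below vehicle to 0.30 below it, and Acox2, which shortens the side chain of bile acid precursors in peroxisomes, rose by 3.39 ± 0.25. Of the uptake transporters, Slco1a1, Slco2b1 and the sodium-dependent Slc10a1 also rose, by 2.35, 1.97 and 1.05, but Slc10a1 was still at -0.81 relative to vehicle at 48 h. The 2 that fell were the export pumps Abcc2 (-1.39) and Abcc3 (-1.05), which had been above vehicle at 24 h, at 0.64 and 1.05. The median of the list relative to vehicle was -1.84, -1.68 and -2.13 in the 3 rats at 24 h and -0.36 and -0.20 in the 2 rats at 48 h.

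Fatty acid oxidation breaks down fat in mitochondria and peroxisomes, and the liver turns part of the product into ketone bodies. Of its 18 measured genes 17 rose and none fell, with a median change of 1.85 against 0.03 over all genes, and the count was 17 whichever rat was left out. All 18 were below vehicle at 24 h, with a median effect of -1.84. At 48 h the median effect was 0.05, with 2 genes above vehicle, 4 below and 12 that did not pass. Relative to vehicle the list's median was -1.85, -1.76 and -1.86 in the 3 rats at 24 h, and 0.00 and 0.07 in the 2 rats at 48 h. In the vehicle rats themselves 5 of the 18 genes were lower at 48 h than at 24 h (median -0.31). With the treated groups compared directly the median change was 1.38 and 17 genes still rose.

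Etfdh, which passes electrons from acyl-CoA dehydrogenases to the respiratory chain, lay at 7.01, 6.80 and 7.92 in galactosamine rats at 24 h against 10.35, 10.65 and 10.55, and at 9.91 and 10.01 at 48 h against 10.10, 10.04 and 9.92. Its change was 3.21 ± 0.25 (adjusted p = 7.14e-13), and at 48 h 1 galactosamine rat lay within the range of the vehicle rats and the other just under it. The carnitine-acylcarnitine carrier Slc25a20 rose by 3.04 ± 0.28. Hadhb, the thiolase subunit of the mitochondrial trifunctional protein, lay at 9.66, 9.85 and 9.86 at 24 h and at 11.64 and 11.73 at 48 h. Its vehicle rats lay at 11.77, 11.70 and 11.76 and then at 11.28, 11.24 and 11.01, so that it ended above vehicle (0.51 ± 0.13) after a change of 2.46 ± 0.17. The medium-chain thiolase Acaa2 rose by 2.39 ± 0.20 and likewise stood above vehicle at 48 h (0.49). Ehhadh, the bifunctional enzyme of peroxisomal oxidation, and Bdh1, which makes the ketone body 3-hydroxybutyrate, rose by 2.09 and 2.26 from the deepest effects of the list at 24 h (-3.97 and -3.58) and were still at -1.88 and -1.32 at 48 h. Pdk4, the kinase that turns off pyruvate dehydrogenase, was the 1 member that did not pass, at -0.83 ± 0.60.

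Other genes of fatty acid handling were among the largest rises. Acot1, a cytosolic acyl-CoA thioesterase with a close copy in Acot2 that its probe set could also detect, lay at 6.30, 4.0 and 8.31 at 24 h against 8.57, 9.64 and 9.67. At 48 h it lay at 11.17 and 11.98 against 7.85, 7.85 and 5.53. Its vehicle rats also spread widely, and its change of 7.58 ± 1.45, the largest of all, had the widest error of the 12 largest rises. Hacl1 and Vnn1, a peroxisomal lyase for branched fatty acids and the pantetheinase vanin, rose by 4.32 ± 0.42 and 5.2 ± 0.61. Bbox1, the last enzyme of carnitine synthesis, rose by 4.79 ± 0.35 and its second probe set by 3.54. The glycerol kinase Gk lay at 6.30, 6.85 and 6.35 at 24 h against 9.98, 10.53 and 10.46 in vehicle rats, and at 10.72 and 10.48 at 48 h, 0.36 above its vehicle mean, after a change of 4.19 ± 0.22. Aldh1l2, a mitochondrial enzyme of folate metabolism, rose by 4.20 ± 0.40 to 1.41 above vehicle. Wfdc3 and Rab40b completed the 12 largest rises, and both were at background at 24 h, with levels at 48 h at least 8.71-fold and 4.67-fold higher.

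Plin5 and Plin3, coat proteins of lipid droplets, rose by 3.56 ± 0.33 and 2.48 ± 0.26 and passed above vehicle, by 1.38 and 0.85. Plin5 was at background at 24 h, and its level at 48 h was at least 7.68-fold above that. Elovl5, an elongase of polyunsaturated fatty acids, rose by 3.45 ± 0.33. In all, 9 of 23 genes of fatty acid synthesis and lipid droplets rose, 2 fell and 12 did not pass (median change 0.63). The 2 that fell were Scd, the stearoyl-CoA desaturase, and Thrsp, a lipogenic protein of liver. Scd went from 7.92, 8.31 and 6.49 at 24 h (vehicle 5.65, 5.8 and 4.84) to 4.93 and 4.77 at 48 h (vehicle 5.58, 6.38 and 6.08), from above to below every vehicle rat (-3.30 ± 0.93, adjusted p = 0.00445). Thrsp fell by 1.78.

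**Figure D2:**
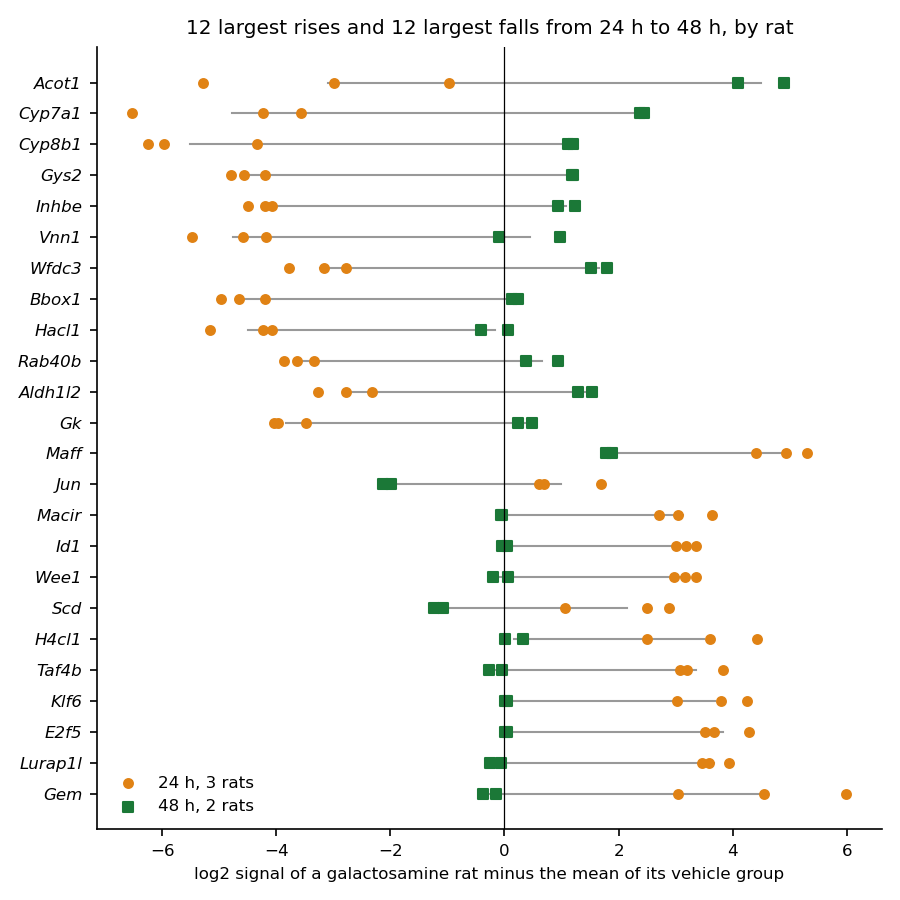
Log2 signal of each galactosamine rat minus the mean of its vehicle group for the 12 largest rises (top) and the 12 largest falls (bottom), with circles for the 3 rats at 24 h, squares for the 2 rats at 48 h and a line joining the 2 means. That circles and squares do not overlap was a condition for choosing these genes. For genes such as Klf6, E2f5, Wee1 and Id1 the squares lie at the vehicle level of 0.

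Cholesterol biosynthesis followed, with 10 of 18 genes that rose, none that fell and a median change of 0.78. Hsd17b7, Nsdhl, Fdft1 (squalene synthase) and Dhcr7 (the last step) rose by 3.17 ± 0.45, 2.99 ± 0.21, 2.89 ± 0.38 and 2.36 ± 0.48. Nsdhl lay at 7.70, 7.82 and 7.55 at 24 h and at 10.86 and 10.55 at 48 h, and both rats at 48 h were above the 3 vehicle rats of that time (9.97, 10.37 and 9.86). The list's median differed between the rats of a time: relative to vehicle it was -0.89, 0.03 and -0.72 at 24 h and 0.76 and 0.14 at 48 h.

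Glycogen and nucleotide sugar genes are close to the point at which galactosamine acts. Gys2, the liver glycogen synthase, which uses UDP-glucose, lay at 6.14, 5.91 and 6.51 at 24 h against 10.90, 10.35 and 10.86. It lay at 10.19 and 10.16 at 48 h against 9.26, 9.00 and 8.71. The change was 5.71 ± 0.40 (adjusted p = 6.64e-14), with every rat below vehicle at 24 h and both above it at 48 h. The vehicle rats were themselves lower at 48 h by 1.72 (adjusted p = 0.00011). Ugp2, which makes UDP-glucose, and Galt, the uridylyltransferase of the galactose pathway, rose by 2.41 ± 0.28 and 1.51 ± 0.25 from 1.99 and 1.47 below vehicle. Ctps1, which makes CTP from UTP, went the other way: it lay at 8.21, 8.77 and 8.70 at 24 h against 5.12, 5.17 and 4.79 in vehicle rats, and at 6.49 and 6.61 at 48 h. It fell by 1.54 but was still 2.00 above vehicle at 48 h, while its other probe set changed by 0.39. In this list of 19 pyrimidine and UDP sugar genes 5 rose, 2 fell and 12 did not pass (median change 0.27). The other members that rose were Cmpk1 (1.13) and the nucleoside transporter Slc29a1 (0.61), and Umps, which completes UMP synthesis, fell by 0.83.

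In amino acid metabolism, 15 of 29 genes of the urea cycle and amino acid catabolism rose, none fell and 14 did not pass (median change 0.80). Bhmt, which remethylates homocysteine, lay at 7.60, 7.66 and 8.77 at 24 h against 11.97, 11.73 and 10.71, and at 10.66 and 11.30 at 48 h against 11.17, 10.70 and 10.98. It changed by 3.48 ± 0.63 and overlapped with vehicle at 48 h. Hal, Hgd and Got1, which degrade histidine, degrade homogentisate and transfer the amino group of aspartate, rose by 2.82, 2.65 and 2.52. The list as a whole was still lower than vehicle at 48 h, with 10 members below, 2 above and a median of -0.38. Gluconeogenic and glycolytic genes rose in 9 of 19 cases with no falls (median change 0.26). Fbp1 and Pck1, 2 control points of gluconeogenesis, rose by 2.16 ± 0.21 and 1.58 ± 0.34 to within 0.05 of vehicle, and Pfkfb1 and Ldha by 2.31 and 1.88.

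Some hepatocyte transcription factors, nuclear receptors among them, moved too. Of 18 hepatocyte transcription factors 8 rose, none fell and 10 did not pass (median change 0.75). The bile acid receptor Nr1h4 lay at 7.17, 6.18 and 6.95 at 24 h against 9.03, 9.23 and 8.80, and at 9.16 and 8.98 at 48 h against 8.80, 9.02 and 8.88, a change of 2.42 ± 0.30. The xenobiotic receptor Nr1i3 rose by 2.27 ± 0.47. Foxa1 and the fatty acid receptor Ppara were at background at 24 h, and their levels at 48 h were at least 2.56-fold and 1.67-fold higher.

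Respiratory chain genes changed by less. Of 26, 10 rose, 1 fell (Cox4i1, -0.37) and 15 did not pass (median change 0.32), led by the complex I subunits Ndufb3 (1.19 ± 0.16) and Ndufs3 (1.09 ± 0.18), which returned to within 0.05 of vehicle. After cyclic loess 8 rose and 4 fell, and the median change was 0.0. Cytochromes P450 of drug and steroid metabolism shifted little as a list. Of 24, 4 rose, 2 fell and 18 did not pass, with a median change of 0.08, near the 0.03 of all genes. That median had no settled sign, at -0.12 to 0.25 with each rat left out and -0.22 after cyclic loess. At 48 h 14 of the 24 were below vehicle and none above (median -0.50), compared with 18 below and 1 above at 24 h (median -0.91). The genes that rose were the fatty acid hydroxylases Cyp4a1 (2.35) and Cyp4a3 (1.52), Cyp26a1 (1.87; at background at 24 h and at least 2.03-fold higher at 48 h, a call lost in 4 alternatives), which degrades retinoic acid, and Cyp39a1 (1.46), an oxysterol hydroxylase. Cyp2c22 and Cyp4f1 fell by 2.00 and 1.30. Members of these subfamilies are alike in sequence and their probe sets may not tell them apart.

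Of 22 secreted hepatocyte proteins 6 rose, 3 fell and 13 did not pass, where 19.3% of all genes rose and 17.2% fell. After cyclic loess 2 rose and 15 fell, and the median change of -0.05 became -0.49. Serpina7, which carries thyroid hormone, rose by 3.41 ± 0.75, and Igfals, a partner of insulin-like growth factors, by 2.18 ± 0.44 but remained 1.06 below vehicle. Hamp, the iron hormone hepcidin, fell by 2.20 ± 0.51, F12 by 0.67 and Ambp by 0.25. Hamp had been above vehicle at 24 h (1.32), and it is also 1 of the 4 of 18 acute phase genes that fell, with Orm1 (-1.04), Itih4 (-0.48) and Itih3 (-0.25). Il1rn, the interleukin-1 receptor antagonist, was the 1 that rose (0.96). The median change of these 18 had no settled sign, at -0.05, -0.44 after cyclic loess and 0.19 directly.

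**Figure D3:**
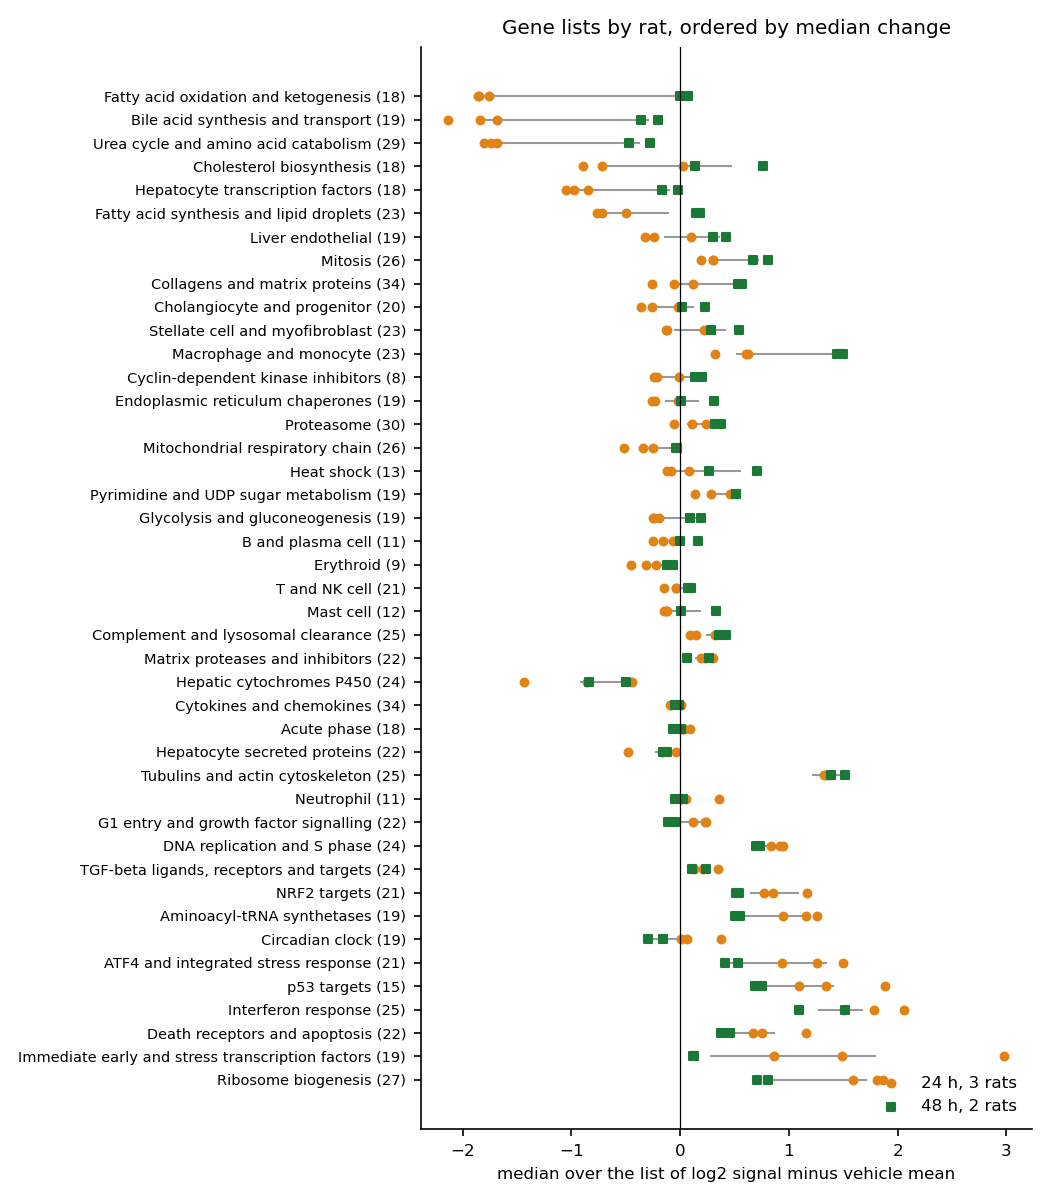
Median over each of 43 gene lists of the log2 signal minus the vehicle mean, with circles for the 3 rats at 24 h and squares for the 2 rats at 48 h. The number of measured genes is in brackets, a line joins the medians of the 2 effects, and lists are ordered by the median change from 24 h to 48 h. Fatty acid oxidation (1.85) is at the top and ribosome biogenesis (-1.17) at the bottom.

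Ribosome biogenesis, the making of ribosomal subunits in the nucleolus, had a low median change. Of 27 measured genes 20 fell, none rose and 7 did not pass, with a median change of -1.17, and between 18 and 21 fell when single rats were left out. All 27 were above vehicle at 24 h (median 1.71), and 20 were still above it at 48 h (median 0.78). By rat, the medians were 1.59, 1.81 and 1.87 at 24 h and 0.71 and 0.81 at 48 h. Nop58, a core protein of box C/D small nucleolar ribonucleoproteins, lay at 11.34, 11.44 and 11.66 against 7.92, 8.15 and 7.96 at 24 h, and at 8.59 and 8.63 against 7.88, 7.83 and 7.92 at 48 h. Its groups did not overlap at either time, and its change was -2.74 ± 0.30 (adjusted p = 2.33e-09). Gar1, of the box H/ACA particles, fell by 2.34 ± 0.31 to 0.16 above vehicle, Wdr43 by 2.15 ± 0.28 and Rrs1, which is needed for the large subunit, by 2.02 ± 0.36. Tsr1, which acts in the ripening of the small subunit, fell by 1.99 ± 0.25.

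**Figure D4:**
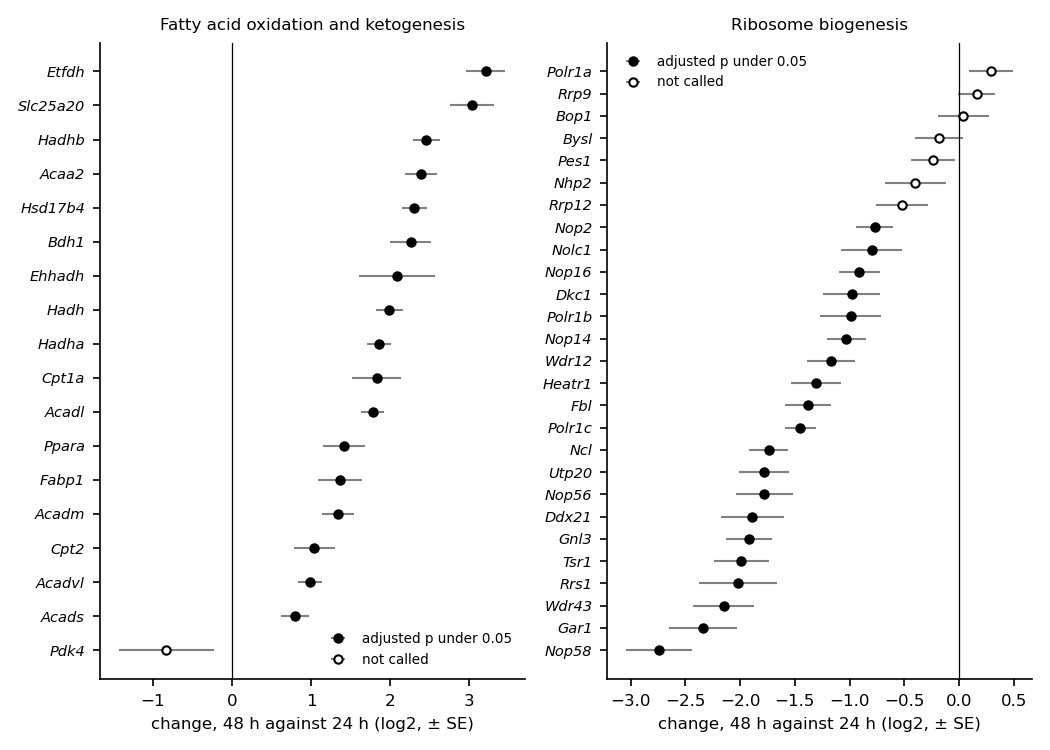
Change from 24 h to 48 h relative to vehicle (log2, bars are the SE of the fit) of the 18 measured genes of fatty acid oxidation and ketogenesis and the 27 of ribosome biogenesis. Filled points passed the test: 17 genes on the left lie above 0 and 20 genes on the right lie below it, and Pdk4 at -0.83 is the open point on the left.

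The start regions of members of these 2 lists are shown because their genes moved in opposite directions as groups. RefSeq start regions (build GRCr8) run from 250 bases before the start to 50 after it. Only list members that passed the test were searched. Regions were at hand for 15 of the 17 fatty acid oxidation genes that rose and 18 of the 20 ribosome biogenesis genes that fell. They are printed in lower case, with capitals for the motif searched in that list (AGGTCA, the hexamer bound by nuclear receptors, for fatty acid oxidation, and CACGTG, the E-box, for ribosome biogenesis), on either strand. Both motifs were added after the values had been seen, and a match is a description of these letters only. Etfdh (chr2:167060709-167061008, minus strand) and Hadhb (chr6:31907451-31907750, minus strand) are from the first list, and Nop58 (chr9:68614824-68615123, plus strand) and Tsr1 (chr10:60258540-60258839, plus strand) from the second.
Etfdh: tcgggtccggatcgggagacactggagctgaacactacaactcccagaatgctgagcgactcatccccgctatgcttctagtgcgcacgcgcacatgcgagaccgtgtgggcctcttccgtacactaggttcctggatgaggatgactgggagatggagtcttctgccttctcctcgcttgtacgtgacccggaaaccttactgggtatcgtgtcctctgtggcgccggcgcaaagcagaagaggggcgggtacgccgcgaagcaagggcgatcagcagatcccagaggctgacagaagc
Hadhb: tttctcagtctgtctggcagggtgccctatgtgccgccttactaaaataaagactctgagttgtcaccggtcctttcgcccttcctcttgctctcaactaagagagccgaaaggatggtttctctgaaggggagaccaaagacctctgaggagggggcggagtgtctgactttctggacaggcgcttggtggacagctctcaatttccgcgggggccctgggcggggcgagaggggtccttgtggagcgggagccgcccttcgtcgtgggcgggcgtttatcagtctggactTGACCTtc
Nop58: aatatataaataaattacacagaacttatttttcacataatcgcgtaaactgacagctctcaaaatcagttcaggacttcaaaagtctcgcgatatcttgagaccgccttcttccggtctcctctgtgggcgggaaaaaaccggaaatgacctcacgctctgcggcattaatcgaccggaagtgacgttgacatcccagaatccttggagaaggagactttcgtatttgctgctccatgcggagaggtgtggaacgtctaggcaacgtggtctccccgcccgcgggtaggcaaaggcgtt
Tsr1: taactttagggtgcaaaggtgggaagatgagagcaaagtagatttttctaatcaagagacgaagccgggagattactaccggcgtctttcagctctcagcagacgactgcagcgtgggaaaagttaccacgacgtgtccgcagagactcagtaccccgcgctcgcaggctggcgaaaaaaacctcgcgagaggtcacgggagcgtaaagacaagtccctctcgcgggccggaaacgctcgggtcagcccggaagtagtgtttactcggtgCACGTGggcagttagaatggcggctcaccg
Hadhb holds the hexamer once, reversed, from base 43 after the start, and Tsr1 holds the E-box once, from base 21 after it, while the other 2 regions have no match to the motif of their list. Slc25a20, with a larger change than Hadhb, and Gar1, with a larger change than Tsr1, are not shown and also have no such match. The regions of Nop58 and Tsr1 hold AGGTCA too, left in lower case because it was not the motif marked for their list.

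Among list members that passed the test, AGGTCA was in 4 of the 15 start regions of fatty acid oxidation (26.7%). For ribosome biogenesis it was in 5 of the 18 (27.8%). The shares were 12.7% of the 11733 genes of the array that have a start region and 15.7% of all 27457. CACGTG was in none of the 15 and in 6 of the 18 (33.3%), against 8.92% and 6.65%. CCAAT, the box bound by NF-Y, was in 4 of the 15 (26.7%) and 2 of the 18 (11.1%), against 37.3% of the genes of the array. These are counts in small sets, with no test. The list members were chosen by their change from 24 h to 48 h, while the genes beside them were not.

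The charging of tRNAs went the same way as ribosome biogenesis. Of 19 measured aminoacyl-tRNA synthetases 9 fell, 2 rose (Qars1, 0.54, and Eprs1, 0.43) and 8 did not pass (median change -0.46). Other probe sets of Eprs1 changed by 0.37, -0.04 and -0.22. Sars1 lay at 9.98, 9.92 and 10.10 at 24 h against 7.90, 8.07 and 8.03, and at 8.77 and 8.67 at 48 h against 8.22, 8.37 and 8.15, a fall of 1.52 ± 0.16 that left it above every vehicle rat. Nars1, Cars1 and Iars1 fell by 1.5, 1.37 and 1.06, though a second probe set of Iars1 changed by -0.04.

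Several of these synthetases are also targets of ATF4, the transcription factor of the integrated stress response, which is set off by amino acid shortage and unfolded proteins. Atf4 itself lay at 11.69, 11.81 and 11.98 at 24 h against 10.01, 10.13 and 10.14. At 48 h it lay at 9.73 and 9.75, below its vehicle rats at 10.27, 10.37 and 10.43. It fell by 2.35 ± 0.25 (adjusted p = 1.73e-09), from above to below every vehicle rat. Ddit3, which promotes death under this stress, and the circulating stress signal Gdf15 fell by 2.50 ± 0.53 and 2.85 ± 0.59, both to within 0.45 of vehicle. Of the 21 genes of the list 10 fell, 3 rose and 8 did not pass (median change -0.47). The hepatokine Fgf21 was the largest of the 3 that rose: it lay at 5.68, 4.67 and 4.88 at 24 h against 6.73, 7.2 and 7.48, and at 7.18 and 7.26 at 48 h against 6.34, 6.25 and 5.06, and changed by 3.41 ± 0.54. Atf5 and Shmt2 rose by 1.30 and 0.57.

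Chaperones of the endoplasmic reticulum rose in 6 of 19 cases and fell in 1 (Hspa5, -0.64), with a median change of 0.37. Pdia4, a disulfide isomerase, rose by 1.84 ± 0.33 from 1.91 below vehicle, and Edem1, Herpud1 and Dnajb11 by 1.28, 1.09 and 0.78, and the call of Edem1 was lost in 4 alternatives and that of Dnajb11 in 2. Between 2 and 8 of them rose with single rats left out, the fewest without galactosamine rat 27.

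Immediate early and stress transcription factors, which respond to injury within minutes to hours, fell in 9 of 19 cases, with none that rose and a median change of -1.09. Between 7 and 10 fell with single rats left out. They differed widely between the rats at 24 h, with medians of 0.86, 1.49 and 2.98 relative to vehicle, and little between those at 48 h (0.13 and 0.12). Klf6 lay at 10.48, 11.25 and 11.70 against 7.39, 7.05 and 7.92 at 24 h and at 7.99 and 7.96 against 7.91, 7.77 and 8.18 at 48 h, within the vehicle range. Its change was -3.67 ± 0.52 (adjusted p = 4.6e-07), and its other probe sets changed by -4.09 and -5.22. Jun lay at 10.34, 10.44 and 11.43 at 24 h against 9.89, 9.24 and 10.11. It lay at 6.84 and 6.98 at 48 h, below the vehicle rats at 8.68, 8.68 and 9.52. This gene, a component of AP-1, was thus above vehicle at 24 h and 2.05 below it at 48 h. Maff fell by 3.04 ± 0.84 and remained 1.84 above vehicle. Atf3 lay at 9.78, 10.66 and 11.35 at 24 h and at 8.56 and 7.76 at 48 h. Its fall of 2.70 ± 0.92 (adjusted p = 0.0193) did not pass without vehicle rat 5, galactosamine rat 24 or galactosamine rat 27 (-2.24, -2.32 and -2.30), nor with the GAPDH covariate (-2.36), and it was 3.16 above vehicle at 48 h.

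Several of the other largest falls were also genes induced at 24 h that had reached the vehicle level at 48 h. Gem, a small GTPase, was at or near background in vehicle rats and lay at 7.02, 8.52 and 9.98 at 24 h, then at 4.02 and 4.26 at 48 h. Its level at 24 h was at least 17.6-fold above that at 48 h. Lurap1l, E2f5 (a member of the E2F family), Wee1 (a kinase that holds back mitosis) and Macir fell by 3.82, 3.80, 3.23 and 3.18, to within 0.16 of vehicle. Taf4b and the histone gene H4cl1 were at background at 48 h, and their levels at 24 h were at least 4.98-fold and 3.30-fold higher. Histone H4 genes are nearly identical, and this probe set may read several of them.

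Genes of p53 and of cell death moved down with them. Mdm2, the ligase that limits p53 and is its target, lay at 11.02, 11.17 and 10.49 at 24 h against 7.58, 7.68 and 7.90, and at 8.35 and 8.31 at 48 h against 7.39, 7.41 and 7.68. It fell by 2.33 ± 0.34 and stayed above every vehicle rat. Plk2, Bbc3, Sesn2 and Ccng1 fell by 1.20, 1.02, 0.94 and 0.76, and Sesn1 rose by 1.25, so that 5 of the 15 p53 targets fell and 1 rose (median change -0.57). The other probe set of Sesn2 changed by 0.62, in the opposite direction, and that of Sesn1 by 0.03. Of the 15, 12 were above vehicle at 24 h and 8 at 48 h. Of 22 genes of death receptors and apoptosis 11 fell and 1 rose (Casp9, 0.83), with a median change of -0.69. They include genes on both sides of cell death: Bcl2l1, which protects cells, fell by 2.12 ± 0.21 and the death receptor Tnfrsf21 by 1.93 ± 0.31. The other probe sets of Bcl2l1 changed by -0.17 and -2.10, and those of Casp9 by 0.50 and 0.03. Tnfrsf12a, the receptor of TWEAK, had an effect of 6.12 ± 0.32 at 24 h. It lay at 11.52, 11.40 and 12.32 against 5.49, 5.76 and 5.62 at 24 h, and at 10.06 and 9.64 against 5.81, 5.62 and 5.79 at 48 h. It fell by 2.01 ± 0.48 and was still 4.11 above vehicle.

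Of 21 targets of NRF2, the factor of the oxidant defence, 6 fell, 1 rose and 14 did not pass (median change -0.33). Gclc, the rate-limiting enzyme of glutathione synthesis, fell by 1.91 ± 0.31, from 1.22 above vehicle to 0.68 below it, and Txnrd1 by 1.74 ± 0.28 to 0.24 above it. Gstp1, a glutathione transferase, was the 1 that rose. It lay at 9.50, 8.29 and 10.04 at 24 h against 8.01, 7.98 and 8.09, and at 10.38 and 10.67 at 48 h against 8.14, 7.65 and 7.57. Its change of 1.49 ± 0.40 took it to 2.74 above vehicle.

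For heat shock and proteasome genes the median change had the opposite sign when the treated groups were compared directly, without the vehicle rats. Of 13 heat shock genes 4 rose and 1 fell (Hspb8, -1.41), with a median change of 0.28, but the median was -0.13 with the treated groups compared directly. In vehicle rats 5 of the 13 were lower at 48 h than at 24 h (median -0.45). Hspe1, for example, rose by 1.09 ± 0.18 relative to vehicle, while directly it changed by 0.21. Of 30 proteasome genes 7 rose and 2 fell (Psma3, -0.87, a call lost in 3 alternatives, and Psmd7, -0.61), with a median of 0.33, or -0.20 directly, where 2 rose and 9 fell, and 11 of them were lower in vehicle rats at 48 h.

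Growth genes did not stand out from all genes by count. Among 22 genes of G1 entry and growth factor signalling 4 rose and 3 fell (median change -0.08, or 0.43 with the dimmest genes left out). These counts are near the shares of all genes that rose (19.3%) and fell (17.2%). Myc, a driver of ribosome production and growth, lay at 8.95, 10.40 and 11.20 at 24 h against 8.34, 7.98 and 7.98, and at 6.5 and 7.39 at 48 h against 7.92, 7.07 and 7.28. It fell by 2.57 ± 0.65 and overlapped with vehicle at 48 h. Plaur and the growth factor Tgfa fell by 1.92 and 1.61, although the second probe set of Plaur changed by 0.24. Beside Fgf21, the genes that rose were Ccnd3 (1.23), Egf (0.77) and Cdk4 (0.43). The cyclin gene Ccnd1 was above vehicle at both times (1.83 and 2.40) and its change, 0.57 ± 0.68, did not pass.

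Of 24 genes of DNA replication 17 were above vehicle at 24 h and 17 at 48 h, with medians of 0.94 and 0.71. Between the times 1 rose (Dut, 0.90) and 2 fell (Pcna, -0.88, and Mcm7, -0.77), and without galactosamine rat 26 neither Pcna nor Mcm7 passed (-0.78 and -0.69). Pcna's call was also lost without vehicle rat 4 (-0.83) or galactosamine rat 23 (-0.75). The list's median change of -0.13 became 0.23 with the dimmest genes left out, and Dut's call was lost with the mean of its probe sets (0.36). Of 26 mitosis genes 4 were above vehicle at 24 h and 12 at 48 h (medians 0.28 and 0.72). The median change was 0.59, yet the 1 gene that passed, Cenpf, was at background at both times. The number that rose was 13 with only the groups compared in the fit and 8 with array weights. Cdk1, the kinase of mitotic entry, stood at 1.02 and then 2.05 above vehicle and Mki67, a marker of cycling cells, at 1.08 and 2.07, with changes of 1.04 ± 0.72 and 0.99 ± 0.79 that did not pass (adjusted p = 0.288 and 0.36). Mitosis genes were dim, with 9 of the 26 at background in galactosamine rats at both times. The cyclin-dependent kinase inhibitor Cdkn1a was 3.87 above vehicle at 24 h and 2.80 at 48 h, a change of -1.07 ± 0.50 that did not pass. Of 8 such inhibitors Cdkn1c (0.76) and Cdkn2a (0.52, at background) rose. Neither passed with the GAPDH difference as a covariate, and the call of Cdkn1c was lost in 4 further alternatives and that of Cdkn2a in 1.

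Interferon-stimulated genes were mostly above vehicle, with 22 of 25 higher at 24 h and 18 at 48 h (medians 1.67 and 1.28). Between the times 7 fell, 3 rose (Stat2, 0.88; Oasl, 0.83; Ifi27, 0.82) and 15 did not pass, with a median change of -0.67. The chemokine Cxcl10 lay at 7.57, 7.05 and 9.70 at 24 h against 4.67, 4.33 and 4.88 and at 5.68 and 5.05 at 48 h against 4.38, 5.23 and 4.95, a fall of 2.97 ± 0.78. Rsad2, an antiviral protein, fell by 1.70 ± 0.47 and was still 2.05 above vehicle. With single rats left out between 3 and 10 genes of the list fell, the fewest without galactosamine rat 27 and the most without vehicle rat 12.

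Of 34 cytokines and chemokines 7 rose, 6 fell and 21 did not pass (median change -0.01). These counts too are near the shares of all genes (19.3% and 17.2%). Ccl2, which draws monocytes, lay at 5.96, 7.09 and 6.97 at 24 h and was at background in both galactosamine rats at 48 h and in vehicle rats. Its level at 24 h was at least 4.94-fold above that at 48 h. Spp1 (osteopontin) was not distinguishable from vehicle at 24 h (-0.62, adjusted p = 0.104). It lay at 6.12 and 7.78 at 48 h against 5.31, 4.96 and 4.97, and rose by 2.49 ± 0.49 with the 2 rats far apart. Cxcl12 rose by 2.22 ± 0.32, from 2.78 to 0.56 below vehicle.

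Markers of liver macrophages were higher at 48 h. Of 23 measured markers 19 were above vehicle at 48 h and 2 below, against 10 and 2 at 24 h, and the median effect was 1.49 and 0.52. Between the times 8 rose and 1 fell (Lyz2, -1.0), with a median change of 0.44. Clec4f, the receptor that marks Kupffer cells, lay at 8.78, 9.09 and 9.37 at 24 h against 9.33, 9.26 and 9.33, and at 10.81 and 10.81 at 48 h against 10.07, 9.24 and 8.64. Its change was 1.72 ± 0.34 (adjusted p = 9.29e-05), and both rats at 48 h were above all vehicle rats. Adgre1 (F4/80) rose by 2.22 ± 0.46 and the growth factor receptor Csf1r by 1.29 ± 0.39. The complement genes C1qb and C1qc rose by 1.47 and 1.24. Vehicle rat 10 stood above the other vehicle rats at 48 h in these genes, for example at 6.78 against 5.28 and 5.01 for Adgre1. Between 5 and 9 of the markers rose with single rats left out, the fewest without vehicle rat 12 or galactosamine rat 27.

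The list of complement and lysosomal genes, which shares genes such as C1qa, C1qb, Cd68 and Lyz2 with the macrophage markers, had 9 of 25 that rose and 2 that fell (Gas6, -1.32, and Lyz2). Gas6's call was lost in 9 of the alternatives tried. Ctsc, a lysosomal peptidase, rose by 1.61 ± 0.18 but had been 2.03 below vehicle at 24 h. Of 11 neutrophil markers none passed in limma (1 at an unadjusted p under 0.05), and 7 were at background. Lcn2 lay at 7.59, 6.76 and 10.24 at 24 h and at 10.02 and 9.13 at 48 h, but vehicle rat 10 also lay at 11.12 (the other 2 at 7.99 and 6.34), and its change was -1.0 ± 1.64. T and NK cell, B cell and mast cell markers were mostly dim, with 9 of 21, 8 of 11 and 8 of 12 at background. Those that rose were Zap70 (0.95) and Lck (0.50), Jchain (1.17), Blk (0.89) and Cd37 (0.78, at background), and Hdc, Mcpt10 and Mcpt1. The calls of Lck and Jchain were lost in 8 alternatives each (0.15 and 0.71 with the treated groups compared directly), that of Mcpt1 in 7, and those of Mcpt1 and Mcpt10 without galactosamine rat 26 (0.40 and 0.69). Of these, Hdc, which makes histamine, lay at 6.85, 5.06 and 6.91 at 24 h and at 9.56 and 8.42 at 48 h, above all vehicle rats (7.12, 6.73 and 5.89), and changed by 3.40 ± 0.54. It is not particular to mast cells, and Mcpt10 was at background throughout.

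Endothelial markers rose in 7 of 19 cases, with none that fell (median change 0.61). The sinusoidal receptor Stab2 lay at 7.61, 8.16 and 7.43 at 24 h against 8.85, 8.57 and 8.78, and at 8.86 and 8.74 at 48 h, level with its vehicle rats (8.89, 8.69 and 8.09). It changed by 1.24 ± 0.25. Vwf rose by 1.55 ± 0.31 and the receptor Kdr by 1.13 ± 0.22, although a second probe set of Kdr changed by -0.04.

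Of 34 collagens and matrix proteins 3 were above vehicle and 6 below at 24 h, and 11 were above and 1 below at 48 h. Between the times 7 rose, a share near that of all genes, and 1 fell (Lamc1, -0.85), with a median change of 0.57, and between 3 and 11 rose with single rats left out, the fewest without vehicle rat 12 or galactosamine rat 27 and the most without vehicle rat 10. Col1a2 lay at 7.32, 7.60 and 6.72 at 24 h against 8.24, 7.38 and 8.34, and at 8.73 and 8.90 at 48 h against 8.75, 6.98 and 6.73. The vehicle rats at 48 h overlapped with the galactosamine rats. Its change of 2.10 ± 0.79 (adjusted p = 0.033) did not pass without vehicle rats 4, 6, 11 or 12, galactosamine rats 24, 26 or 27, or with the GAPDH covariate, with values of 1.72 to 2.18. Col1a1 rose by 1.61 ± 0.60 and likewise lost its call in 7 alternatives (1.10 to 1.76), and Col14a1 in 6. Lama5, a laminin chain, lay at 8.50, 6.79 and 8.50 at 24 h against 4.19, 4.75 and 5.10, and at 9.98 and 9.97 at 48 h against 4.85, 4.87 and 5.06. It changed by 1.80 ± 0.51, but its other probe sets changed by 0.27 and 0.18.

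Stellate cell and myofibroblast markers rose in 3 of 23 cases, Lrat (1.16) and the collagens Col1a1 and Col1a2, and Gfap fell by 0.66, a call lost in 9 alternatives (-0.36 directly). With single rats left out 0 to 5 rose, none without galactosamine rat 27. Acta2, the actin of myofibroblasts, was 0.45 and 0.55 above vehicle, and its change of 0.10 ± 0.25 did not pass. Timp1, an inhibitor of matrix proteases, was above vehicle by 2.54 at 24 h and 2.56 at 48 h. Of 22 proteases and inhibitors 3 rose and 5 fell. Timp2 rose by 1.33, Mmp19 by 0.72 and Adam8 by 0.53. The genes that fell were Plaur, Timp3 (-1.55), Plat (-1.41, a call lost in 6 alternatives), Mmp14 (-1.35) and Mmp3 (-1.28, at background). The other probe sets of Timp2 and Adam8 changed by 0.25 and 0.24, and those of Timp3 by -1.63, -0.98 and -0.04.

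In the TGF-beta family 8 of 24 genes fell and 3 rose (median change -0.16). Id1, a target of bone morphogenetic proteins, lay at 10.55, 10.37 and 10.73 at 24 h against 6.96, 7.90 and 7.26, and at 6.90 and 7.00 at 48 h against 7.09, 7.03 and 6.74. It fell by 3.18 ± 0.47, back into the vehicle range. Skil and Smad7, which restrain the pathway, fell by 2.00 and 1.53. Inhbe, an activin subunit made by hepatocytes, was the largest of the rises: it lay at 5.06, 5.47 and 5.36 at 24 h against 9.46, 9.56 and 9.65, and at 8.86 and 8.56 at 48 h against 8.01, 7.90 and 6.96. It changed by 5.34 ± 0.67. Ltbp4 and Bmp4 rose by 1.91 and 0.76.

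The list of tubulin and actin cytoskeleton genes also held annexins, S100 proteins, Vim and the nuclear lamin gene Lmna. Of its 25 measured genes 18 were above vehicle at each time (medians 1.22 and 1.51). Between the times 6 fell and 1 rose (Lmna, 1.09), with a median change of -0.07. Tpm4 and Tubb5 fell by 1.45 ± 0.21 and 1.23 ± 0.35 and remained 0.54 and 1.55 above vehicle. Of 20 cholangiocyte and progenitor markers 5 rose and 3 fell, where 19.3% of all genes rose and 17.2% fell. Afp, the fetal albumin, lay at 5.47, 5.24 and 5.57 at 24 h against 6.28, 6.39 and 6.11, and at 6.99 and 7.16 at 48 h against 6.17, 5.95 and 5.88. It rose by 1.90 ± 0.33, from below to above every vehicle rat. Spp1, Tspan8 (1.55), Muc1 (0.79) and Igf2 (0.69) also rose, while Cd44 (-1.42), Cldn7 (-1.41) and Cdh1 (-1.26) fell. A second probe set of Cdh1 changed by -0.24, and the other probe sets of Igf2 by 0.25, -0.02 and -0.24. The call of Tspan8 was lost in 8 alternatives (1.03 without vehicle rat 6). Krt19, the keratin of bile ducts, did not pass (1.36 ± 0.60).

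Of 19 clock genes 2 rose and 4 fell (median change -0.46), where 19.3% of all genes rose and 17.2% fell. Per1 and Cry1, repressors of the clock, fell by 1.79 ± 0.31 and 1.71 ± 0.44, Bhlhe40 by 1.56 and Rora by 0.86, and Hlf and Usp2 rose by 2.58 and 1.61 but were still 1.36 and 0.96 below vehicle. A second probe set of Rora changed by 0.20. Hlf was at background at 24 h, and its level at 48 h was at least 6.64-fold higher. No clock gene of the list differed between the vehicle groups of the 2 times. Of 9 erythroid markers only Slc4a1, the anion exchanger of red cells, rose (2.06), from background at 24 h to a level at least 2.84-fold higher.

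The same interval was then compared with rats that had received nevirapine by mouth in the week before the same galactosamine dose and after it, 3 rats at 24 h and 3 at 48 h. The question was whether genes took a different course between the times. No vehicle group enters this comparison: it is the difference between galactosamine at 48 h and 24 h minus that of the combination. It shares the galactosamine arrays with the change above. In all 3127 genes differed, 1744 with a higher course after galactosamine alone (12.3%) and 1383 with a lower one (9.73%). With only these 4 groups in the fit the counts were 503 and 324.

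**Figure D5:**
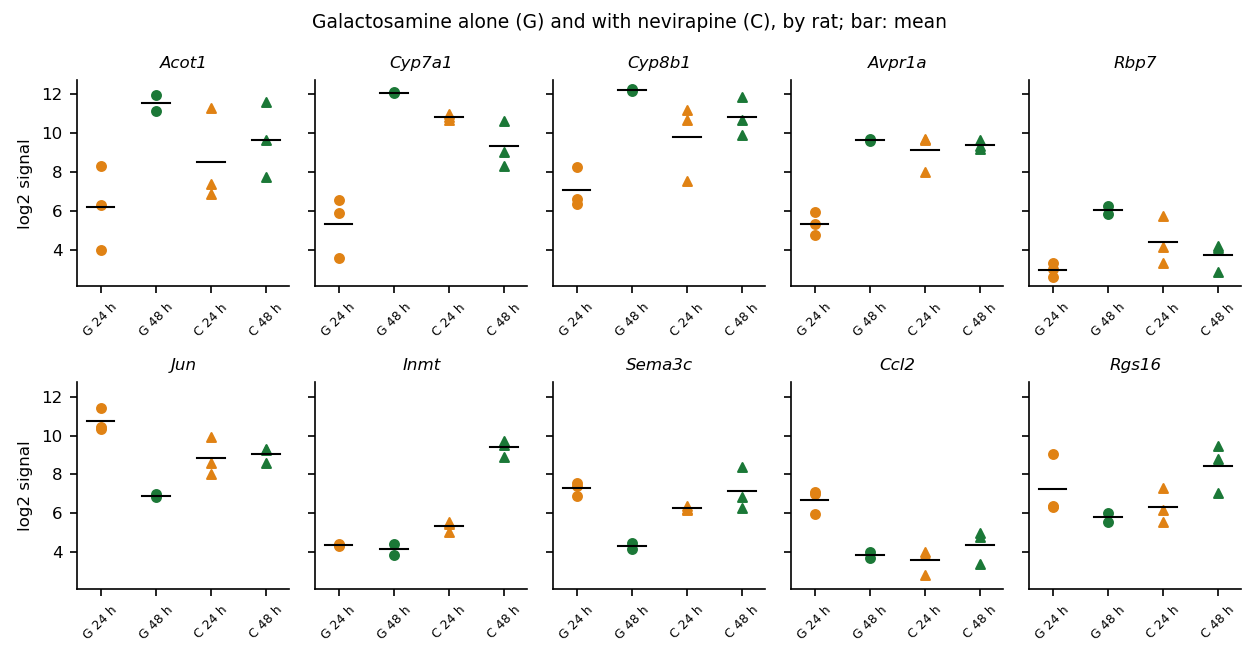
Log2 signal by rat of the 10 genes with the largest fitted difference in course between galactosamine alone (G, circles) and galactosamine with nevirapine (C, triangles) at 24 h and 48 h, where bars are group means. Genes in the upper row had a higher course after galactosamine alone, such as Cyp7a1 with a difference of 8.27, and those in the lower row a lower one, such as Jun with -4.04.

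Cyp7a1 had the largest difference in course, 8.27 ± 1.04 (adjusted p = 3.73e-07). In combination rats it lay at 11.00, 10.82 and 10.70 at 24 h, above all galactosamine rats of that time, and at 9.04, 8.30 and 10.62 at 48 h, below both. Cyp8b1 (4.12 ± 0.83) lay at 10.66, 11.19 and 7.54 in combination rats at 24 h, below every vehicle rat of that time, and 2 of the 3 were above all galactosamine rats. Avpr1a, a vasopressin receptor, lay at 5.93, 5.35 and 4.77 in galactosamine rats at 24 h and at 9.67, 9.71 and 7.98 in combination rats, and the groups were close at 48 h (9.69 and 9.62 against 9.63, 9.34 and 9.21), with a difference in course of 4.03 ± 0.39. Acot1 (4.22 ± 1.45, adjusted p = 0.0321) varied widely among combination rats, at 7.39, 11.32 and 6.86 and then 11.63, 9.64 and 7.74. Its call was lost without galactosamine rats 23, 26 or 27 and without combination rats 69 or 72 (2.82 to 4.63). Rbp7 had the higher course too, but it was at background in galactosamine rats at 24 h and in combination rats at 48 h, so the size of its difference was not measured.

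Among genes with the lower course, Jun lay at 8.00, 8.59 and 9.90 at 24 h and 8.58, 9.26 and 9.29 at 48 h in combination rats, where it did not fall (0.21 ± 0.40), a difference in course of -4.04 ± 0.59 (adjusted p = 4.92e-06). Inmt, a methyltransferase, was near background in the galactosamine rats at both times and reached 9.53, 9.72 and 8.91 in combination rats at 48 h. Sema3c and Ccl2 had the lower course too. The sizes of these 3 differences were not measured, because Inmt in galactosamine rats at both times, Sema3c in galactosamine rats at 48 h and Ccl2 in 3 of the 4 groups were at or near background. Rgs16, a regulator of G protein signalling, differed by -3.52 ± 0.86, and 1 galactosamine rat at 24 h stood apart from the other 2 (9.04 against 6.31 and 6.35).

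By list, 9 of 18 genes of fatty acid oxidation and 9 of 19 of bile acid synthesis and transport had a higher course after galactosamine alone, with medians of 0.72 and 0.28, and 8 of 19 immediate early genes a lower one (median -1.57), against a median of -0.02 over all genes. For ribosome biogenesis 4 of 27 were higher and 6 lower. At 8 d after galactosamine alone, 5 of 14217 genes differed from vehicle of that time. Cyp7a1 was not among them, although it then lay at a mean of 6.91 against 8.12 in vehicle rats.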

How the data were processed

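RNA of 50 rat livers was hybridised to 1-colour Affymetrix arrays, 1 per rat. The deposited values are on a log2 scale, and RMA and limma are the tools that the authors list, without versions, per the submitters' processing notes. No further scaling was applied. Of 31099 probe sets, 20826 with 1 symbol were used, while 436 with several symbols, 9831 with no entry and 57 controls were left out. For each of 14217 genes 1 probe set was kept, the brightest on average (4525 genes had several), and 14167 symbols were matched to RefSeq by Entrez ID.

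A limma model (version 3.58.1, R 4.3.3) with 17 groups was fitted to all 50 arrays, which share 1 estimate of the spread, with eBayes and Benjamini-Hochberg adjustment over all genes. Tables and plots used python 3.11.15, numpy 2.4.6, pandas 2.3.3 and matplotlib 3.10.9, and the fit was tested on simulated data. Groups came from the sample titles, with 3 rats each except 2 for galactosamine at 48 h, although the protocol speaks of 3 per time, and in 1 place of galactose. The labels do not say more on how rats were assigned.

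The named genes are the 12 largest rises and falls that were called, above background in a galactosamine group and without overlap between the galactosamine rats, up to 4 members of each list, and 5 genes each way for the course. Other genes, among them members of counts of 5 or fewer, were named after their values were seen. The members, gene lists and motifs were chosen with earlier results of these data known. Alternatives were the prior, the arrays in the fit, a filter on the dimmest 40% of genes, the probe sets, cyclic loess, array weights, the GAPDH difference as a covariate and each rat left out in turn.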

Additional observations from a re-analysis of the deposited data

Results flagged for a closer look

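The course from 24 h to 48 h differed between galactosamine alone and galactosamine with nevirapine in 3127 genes (limma, adjusted p under 0.05 for the difference itself). Among genes whose course was higher after galactosamine alone, the difference was 8.27 for Cyp7a1, 4.22 for Acot1, 4.12 for Cyp8b1, 4.03 for Avpr1a and 3.75 for Rbp7 on the log2 scale. Among those whose course was lower, it was -4.29 for Inmt, -4.04 for Jun, -3.87 for Sema3c, -3.64 for Ccl2 and -3.52 for Rgs16. Inmt, Sema3c, Ccl2 and Rbp7 were at or near background in at least 1 of the groups compared, so the sizes of their differences and their order were not measured. With only the 4 groups compared in the fit, Acot1 (adjusted p = 0.239), Cyp8b1 (0.0842) and Rgs16 (0.0996) did not pass in limma. No cause of these differences was tested.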

How the results depend on the processing

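The count of genes that changed from 24 h to 48 h lay between 4308 and 6781 over all alternatives, within 1.5 times of 5179, and no named gene that was called changed direction. With every probe set tested 3301 were higher and 3480 lower, against 2740 and 2439 in the fit used. With each rat left out, it was 4308 to 5133. Genes below vehicle at 48 h, 2066 in the fit used, were 3238 with array weights, 1345 without the dimmest 40% of genes and 3164 with every probe set tested. With each rat left out they were 1067 to 1939, at 1323 without galactosamine rat 26 and 1067 without rat 27, and all genes that differed from vehicle at 48 h were 3708 to 5322, the fewest without rat 27. The course differed in 827 genes (503 higher, 324 lower) with only the groups compared, and with each rat left out the genes with a lower course were 865 to 1615, at 865 without rat 26 and 911 without rat 27. The cause was not tested. Of 166 named genes that were called, 133 kept the call in all 20 settings. List medians turned sign for heat shock (-0.13) and proteasome (-0.20) genes with the treated groups compared directly, where 2 proteasome genes rose and 9 fell in place of 7 and 2, for DNA replication (0.23) without the dimmest genes, and for cytochromes P450 (-0.22) and complement and lysosomal genes (-0.05) after cyclic loess. After cyclic loess 15 of 22 secreted proteins fell and 2 rose, in place of 3 and 6, and the median of the respiratory chain genes was 0.0 in place of 0.32. Medians near 0 turned sign in further settings for G1 entry, acute phase, matrix protease, cytokine and neutrophil lists. No paired analysis was possible because the groups share no replicate numbers. Only 2 rats at 48 h limit the precision, and genes near background give only lower limits.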
